A study of Mus musculus with 9 samples.

Results

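The integrin subunits of a mouse fibroblast line were followed through MLKL dimerization and its washout. The members were 10 genes taken by symbol, Itga1, Itga2, Itga3, Itga5, Itga6, Itgav, Itgb1, Itgb3, Itgb4 and Itgb5, out of 22180 genes that had a probe set with 1 gene symbol on the array. Each gene's probe set was chosen by its mean level, the highest over all 9 arrays, so mean levels are given only as a description. The genes were picked with earlier results of these data known, so no test below is independent evidence about the list.

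Total RNA was measured on 9 one-colour Affymetrix arrays, 3 in each of 3 groups, in bulk samples of hMLKL1-181-2Fv-NIH3T3 cells. This is an NIH3T3 fibroblast line that carries part of human MLKL, the pseudokinase whose oligomers breach the cell membrane in necroptosis, joined to Fv domains, and all 3 groups carry the fusion. B/B is a dimerizer compound that brings Fv domains together. Washout cells were given 50 nM B/B for 1 h, sorted as positive for annexin V, which marks phosphatidylserine on the outer face of the membrane, and then kept for 6 h of washout, for which the series design gives 3000 nM without naming a compound. B/B 1 h cells had the same B/B treatment and sort and no washout. Between washout and B/B 1 h cells, the 3000 nM and the 6 h after the sort cannot be told apart. Control cells are labelled only as having had the control treatment, with no word on sorting or on when they were harvested, so against control the dimerizer, the sort and the time of harvest cannot be told apart. The labels do not say whether the arrays of a group came from separate cultures or whether the line is 1 clone, so p-values measure the spread between these arrays, which may be technical. Replicate numbers below follow the order of the samples in each group and only name an array.

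Integrins are cell surface receptors made of 1 alpha and 1 beta subunit, which hold cells to the extracellular matrix and pass force and signals to the actin cytoskeleton through talin and kindlin. The beta 1 subunit pairs with most alpha subunits of fibroblasts, among them alpha 1 and alpha 2, which bind collagen, alpha 3 and alpha 6, which bind laminin, and alpha 5, which binds fibronectin. Of the beta subunits among the members, alpha v pairs with beta 1, beta 3 or beta 5, and its receptors bind vitronectin, fibronectin and other ligands. Beta 4 pairs only with alpha 6 and anchors epithelial cells through hemidesmosomes.

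Promoter windows are shown for the member that rose most after washout, for the member that fell most and for Itgb1, the common partner that did not pass the test. The letters come from RefSeq on GRCm38.p6, 250 bases before to 50 after a gene's start, 5′ to 3′. Capitals mark every match to a searched motif.
Itga2 (chr13:114932051-114932350, minus strand): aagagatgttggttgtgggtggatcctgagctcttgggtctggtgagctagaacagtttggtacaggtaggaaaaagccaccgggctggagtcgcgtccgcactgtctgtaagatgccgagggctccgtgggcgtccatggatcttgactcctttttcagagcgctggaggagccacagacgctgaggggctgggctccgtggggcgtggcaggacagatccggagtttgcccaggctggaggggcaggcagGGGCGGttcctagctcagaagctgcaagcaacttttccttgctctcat
Itgb5 (chr16:33829415-33829714, plus strand): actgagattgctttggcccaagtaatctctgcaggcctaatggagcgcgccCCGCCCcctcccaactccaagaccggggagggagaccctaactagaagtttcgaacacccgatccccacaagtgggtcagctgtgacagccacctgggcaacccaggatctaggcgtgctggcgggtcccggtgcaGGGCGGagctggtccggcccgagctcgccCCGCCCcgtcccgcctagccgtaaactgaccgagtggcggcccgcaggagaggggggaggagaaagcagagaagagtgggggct
Itgb1 (chr8:128685404-128685703, plus strand): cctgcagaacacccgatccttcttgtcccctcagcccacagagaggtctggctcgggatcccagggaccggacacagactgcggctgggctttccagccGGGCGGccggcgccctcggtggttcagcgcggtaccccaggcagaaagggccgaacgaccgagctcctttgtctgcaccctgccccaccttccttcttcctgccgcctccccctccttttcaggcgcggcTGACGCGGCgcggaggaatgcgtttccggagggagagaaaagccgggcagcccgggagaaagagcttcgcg

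Windows were at hand for 7 members, with 2 for Itga3, and both strands were searched. The Sp1 letters GGGCGG stood in windows of 6 of these 7 genes, Itga1 being without them, and in 35.7% of all 32851 windows of this length. The Itga2 window held 1 such match, the Itgb5 window 3 and the Itgb1 window 1. The antioxidant element TGACNNNGC was found in the Itgb1 window alone among the members' and in 12.4% of all windows, and the AP-1 letters TGANTCA in 1 of the Itga3 windows and in 7.81% of all. No member's window held the E-box CACGTG (7.15% of all windows), TATAAA (13.6%) or a CArG box (1.63%). Windows of Itga2, Itgb5 and Itgb1 were 59.3%, 65.7% and 67.3% G or C, where the median of all windows was 52.7%. A match is a run of letters and not a measured binding site.

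Array medians lay between 4.60 and 4.68 on a log2 scale. The base of 2 was read off the range of values, and fold differences below rest on it. Correlation across genes, which are no replicates, was 0.998 to 0.999 within a group and 0.990 to 0.998 between groups. B/B 1 h replicate 1 had the lowest estimated array weight, 0.563, where the other 8 arrays had 0.923 to 1.29. Of 13 fibroblast markers, 10 lay above the lowest 30% of genes by mean, a range in which signal and background could not be separated, and Fap, Lum and Postn lay within it. The mean log2 level of these markers was 8.35 to 8.40 in washout arrays, 8.67 to 8.69 in B/B 1 h arrays and 8.66 to 8.68 in control arrays. In washout against control 2 of them were higher and 6 lower (limma adjusted p under 0.05), where 26.2% of all genes and 36.2% of those above the lowest 30% passed. Among the lower ones was Pdgfrb, a growth factor receptor gene, at -1.36 (log2), and among the higher ones Pdgfra, its paralogue, at 0.68 (log2), both chosen after their values were seen. Markers of other cells that carry such integrins were also read. Epithelial markers averaged 4.50 to 4.54 in washout, 4.55 to 4.62 in B/B 1 h and 4.52 to 4.57 in control arrays, with Epcam, Cldn7 and Esrp1 in the lowest 30% and 1 of 11, Cdh1, lower after washout. The leukocyte list averaged 5.09 to 5.12 in washout, 5.08 to 5.15 in B/B 1 h and 5.001 to 5.05 in control arrays, with Ptprc, Adgre1, Lyz2, Cd3e and Itgam in the lowest 30%. Of its 12 genes Cd14 was higher, at 1.47 (log2), and Ptprc and Lyz2 were lower in washout than in control. Cd14, Cd68 and Adgre1 were higher in B/B 1 h than in control, a comparison in which 2.89% of all genes passed. Endothelial genes averaged 4.59 to 4.70 in washout, 4.63 to 4.76 in B/B 1 h and 4.56 to 4.62 in control arrays, with Tek, Emcn and Cldn5 in the lowest 30% and 1 of 11, Cdh5, higher after washout. Platelet genes, whose integrins include alpha 2 and beta 3, averaged 5.01 to 5.12 in washout, 5.24 to 5.34 in B/B 1 h and 5.28 to 5.34 in control arrays, with Pf4 in the lowest 30% and 1 of 5, Ppbp, lower after washout, at -1.25, and at 1 h, at -0.46 (log2). The marker genes named here as moved were chosen once their values were known. The part of these markers in the integrin results was not tested, and in bulk samples fewer cells of a type and less RNA per cell cannot be told apart.

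After washout 5 of the 10 integrin genes passed the test against control, in both directions. Itga2 and Itgb3 rose strongly, Itga3 rose slightly, and Itgb4 and Itgb5 fell, while Itga1, Itga5, Itga6, Itgav and Itgb1 did not pass the test against control. In numbers, 3 higher and 2 lower of 10 passed in washout against control (limma, Benjamini-Hochberg adjusted p under 0.05 over all genes), which is 50% of the members. Of all genes 26.2% passed, 14.5% higher and 11.7% lower, and of genes above the lowest 30% by mean, where 9 of the 10 members lie, 36.2% passed. The median log2 difference was 0.00097 for the members and 0.00057 for all genes. At 1 h of B/B, before washout, no member passed in either direction, where 2.89% of all genes and 3.99% of those above the lowest 30% passed. The arrays of washout and control did not overlap in 8 of 10 members, 4 higher and 4 lower, against 38.0% of all genes.

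**Figure D1:**
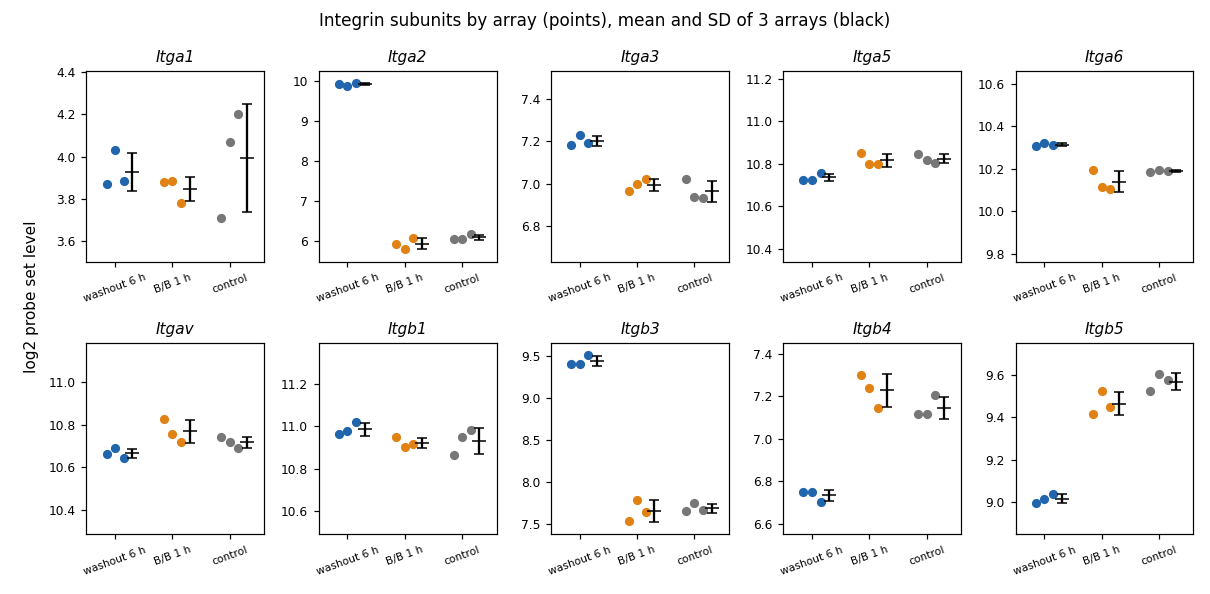
Log2 probe set level of each integrin subunit (vertical axis, its own range in each panel) in washout 6 h, B/B 1 h and control arrays. Points are arrays and black marks the mean and SD of 3 arrays; Itga2 and Itgb3 stand higher and Itgb4 and Itgb5 lower in all 3 washout arrays than in any other array.

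Itga2 encodes the alpha 2 subunit of the collagen receptor alpha 2 beta 1. Its log2 level was 9.92, 9.88 and 9.94 in washout arrays, 5.92, 5.80 and 6.09 in B/B 1 h arrays and 6.05, 6.06 and 6.17 in control arrays. Every washout array stood far above the other 6, which overlapped between B/B 1 h and control. The difference between washout and B/B 1 h was 3.98 ± 0.070 (log2, SE), a 15.8-fold rise within sorted cells (limma adjusted p = 1.8e-09). Against control it was 3.82 (95% interval 3.66 to 3.98), which ranked 1 of 22180 genes by absolute log2 difference.

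Itga1, the other collagen-binding alpha subunit among the members and the next gene to Itga2 on the chromosome, showed none of this. It read 3.87, 4.03 and 3.88 in washout arrays, 3.88, 3.88 and 3.78 in B/B 1 h arrays and 3.71, 4.07 and 4.20 in control arrays. The groups overlapped, and its mean over the 9 arrays, 3.92, lay in the lowest 30% of genes, where signal and background could not be separated. These arrays thus neither bear out nor contradict the label of a fibroblast integrin for Itga1. The difference between washout and control was -0.06 (log2, 95% interval -0.31 to 0.18; limma adjusted p = 0.760).

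Of the laminin-binding subunits, Itga3 rose after washout. Its log2 level was 7.18, 7.23 and 7.19 in washout arrays, 6.97, 6.998 and 7.02 in B/B 1 h arrays and 7.02, 6.94 and 6.94 in control arrays. Washout arrays were above all others, by 0.24 ± 0.043 over control (log2, SE; limma adjusted p = 0.00222), a 1.18-fold difference. Over B/B 1 h the difference was 0.21 ± 0.043 (log2, SE; limma adjusted p = 0.00467), and with quantile normalization that call ended at a difference of 0.13 (adjusted p = 0.0530).

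Itga6, which forms laminin receptors with beta 1 or beta 4, read 10.31, 10.32 and 10.31 in washout arrays, 10.20, 10.12 and 10.10 in B/B 1 h arrays and 10.19, 10.20 and 10.19 in control arrays. Here too each washout array was above the other 6. Itga6 rose over B/B 1 h by 0.17 ± 0.040 (log2, SE; limma adjusted p = 0.00869). Against control its difference of 0.12 (log2, 95% interval 0.03 to 0.21) stood just outside the threshold, at a limma adjusted p of 0.0504, and it was inside under 8 of 18 alternatives, over which the adjusted p ran from 0.00571 to 0.120.

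Itgb4, the beta subunit that pairs only with alpha 6, fell. It read 6.75, 6.75 and 6.70 in washout arrays, 7.30, 7.24 and 7.14 in B/B 1 h arrays and 7.12, 7.12 and 7.21 in control arrays. All washout arrays were below all others. The gene fell by 0.41 ± 0.051 against control (log2, SE; limma adjusted p = 2.3e-04) and by 0.49 ± 0.051 against B/B 1 h (log2, SE; limma adjusted p = 6.6e-05). A probe set that carries the symbols of both Itgb4 and B230344G16Rik, a gene nested in Itgb4, lay at 4.56 to 4.66 in washout, 4.66 to 4.68 in B/B 1 h and 4.66 to 4.87 in control arrays, and was not used for Itgb4.

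Among the members whose products pair with alpha v, Itgb3 rose and Itgb5 fell. Itgb3, the beta subunit of the vitronectin receptor, had log2 levels of 9.40, 9.40 and 9.50 in washout arrays, 7.53, 7.78 and 7.63 in B/B 1 h arrays and 7.65, 7.74 and 7.66 in control arrays. The washout arrays stood apart and the other groups overlapped. Itgb3 was 3.36-fold higher in washout than in control, at a log2 difference of 1.75 ± 0.067 (SE; limma adjusted p = 2.1e-07), and ranked 28 of 22180 genes by absolute difference. Within sorted cells it rose 3.45-fold over B/B 1 h, by 1.79 ± 0.067 (log2, SE; limma adjusted p = 1.2e-07).

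Itgb5, which also makes a vitronectin receptor with alpha v, read 8.997, 9.01 and 9.04 in washout arrays, 9.42, 9.52 and 9.45 in B/B 1 h arrays and 9.52, 9.60 and 9.58 in control arrays. Washout arrays were the lowest, and the B/B 1 h arrays only just reached into the control range. Itgb5 fell by 0.55 ± 0.045 against control (log2, SE; limma adjusted p = 1.6e-05), or 1.47-fold, and by 0.45 ± 0.045 against B/B 1 h (log2, SE; limma adjusted p = 5.2e-05).

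Itgav, the alpha subunit that Itgb3 and Itgb5 share, moved little. It read 10.66, 10.69 and 10.64 in washout arrays, 10.83, 10.76 and 10.72 in B/B 1 h arrays and 10.74, 10.72 and 10.69 in control arrays. Washout arrays were below both other groups by a narrow margin, with a difference from control of -0.05 (log2, 95% interval -0.15 to 0.04; limma adjusted p = 0.456) and from B/B 1 h of -0.10 (log2, 95% interval -0.20 to -0.01; limma adjusted p = 0.109). Itgav has another probe set, far lower, at 3.50 to 3.74 in washout, 3.94 to 3.96 in B/B 1 h and 3.60 to 3.81 in control arrays, whose difference between washout and B/B 1 h was -0.30 (log2; limma adjusted p = 0.0139 over 23521 probe sets). With both probe sets averaged, the difference between washout and B/B 1 h was -0.20 (log2; limma adjusted p = 0.0126).

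Itga5, the fibronectin receptor subunit, read 10.73, 10.73 and 10.76 in washout arrays, 10.85, 10.80 and 10.80 in B/B 1 h arrays and 10.85, 10.82 and 10.80 in control arrays. The washout arrays were lower than all others, yet the difference from control, -0.09 (log2, 95% interval -0.17 to -0.00042), did not pass (limma adjusted p = 0.145).

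Itgb1, the shared beta subunit, read 10.96, 10.98 and 11.02 in washout arrays, 10.95, 10.90 and 10.92 in B/B 1 h arrays and 10.86, 10.95 and 10.98 in control arrays. Washout and control overlapped, at a difference of 0.06 (log2, 95% interval -0.05 to 0.16; limma adjusted p = 0.459). The interval's upper end, 0.16, is far below the differences of Itga2 and Itgb3.

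Differences of the subunits were also set side by side by receptor, without a test between subunits. For alpha 2 beta 1 the log2 difference between washout and control was 3.82 in Itga2 and 0.06 in Itgb1. In alpha v beta 3 it was -0.05 in Itgav and 1.75 in Itgb3, and in alpha v beta 5 it was -0.05 in Itgav and -0.55 in Itgb5. For alpha 6 beta 4 it was 0.12 in Itga6 and -0.41 in Itgb4. The other partners of beta 1 lay nearer to the 0.06 of Itgb1, with -0.06 in Itga1, 0.24 in Itga3, -0.09 in Itga5, 0.12 in Itga6 and -0.05 in Itgav, and the 95% intervals of these 5 overlapped that of Itgb1. Receptor protein at the cell surface was not measured.

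**Figure D2:**
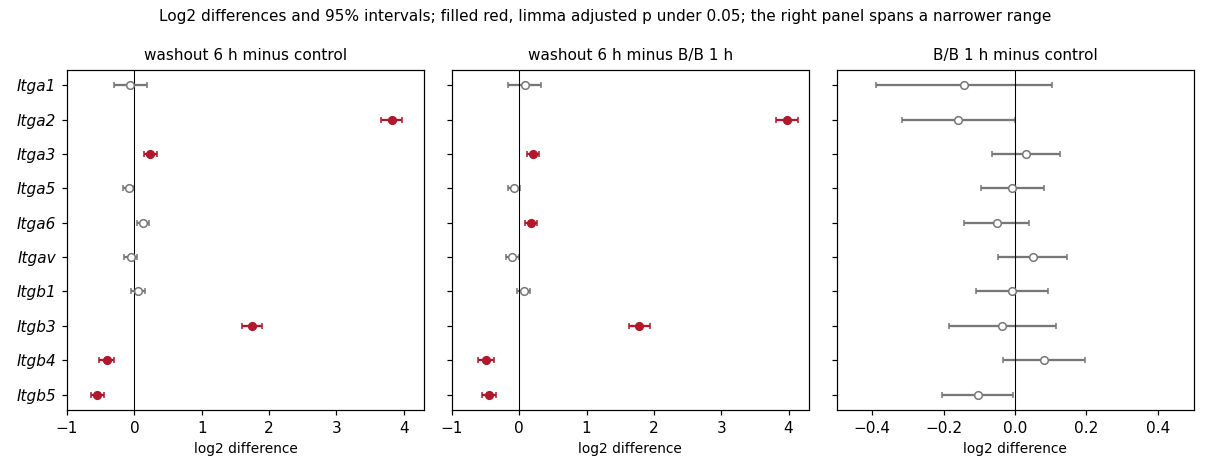
Log2 difference of each integrin subunit (horizontal axis) with its 95% interval for washout 6 h minus control, washout 6 h minus B/B 1 h and B/B 1 h minus control. Filled red points passed the limma test and open grey points did not; the intervals of Itga2 and Itgb3 lie far right of 0 in both washout panels, and no point is filled in the B/B 1 h panel, whose axis spans a narrower range.

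B/B 1 h against control concerned sorted cells soon after dimerization. No integrin subunit passed (limma adjusted p under 0.05), where 2.89% of all genes did, 1.01% higher and 1.88% lower. Itga2, at -0.16 (log2, 95% interval -0.32 to -0.00059; limma adjusted p = 0.269), and Itgb5, at -0.10 (log2, 95% interval -0.21 to -0.0046; limma adjusted p = 0.249), were the 2 members with an unadjusted p under 0.05. The share of all genes at that unadjusted level was not counted. The 10 differences ran from -0.16 to 0.08, with a median of -0.02 beside 0.0042 for all genes. In 0 of 10 members were B/B 1 h and control arrays without overlap, against 21.3% of all genes. Itga1 had the widest interval, -0.39 to 0.10 (log2).

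Within sorted cells, washout was set against B/B 1 h. Here 4 integrin subunits were higher, Itga2, Itgb3, Itga3 and Itga6, and 2 lower, Itgb4 and Itgb5, of 10 (limma adjusted p under 0.05), or 60% where 28.6% of all genes passed, 16.6% higher and 12.0% lower. Among genes above the lowest 30% by mean 39.3% passed. Arrays of the groups did not overlap in 9 of 10 members, Itga1 being the exception, against 39.6% of all genes. The median difference was 0.07 for the members and -0.02 for all genes (log2). With a mean-variance trend in the limma fit, 4 were lower, since Itga5 and Itgav passed as well. The comparisons share arrays, so a member's differences in them are not independent of each other.

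The remaining integrin subunits, which are not members, gave 15 measured genes of 16, with Itga10 not analysed here. In washout against control 2 were higher and 2 lower (limma adjusted p under 0.05), or 26.7%, a share near the 26.2% of all genes. In B/B 1 h against control 0 were called by limma, where 2.89% of all genes passed. There 3 had an unadjusted p under 0.05, and the share of all genes at that level was not counted. In washout against B/B 1 h 0 were higher and 1 lower, or 6.67%, where 28.6% of all genes passed. Their median difference after washout was -0.01 (log2). Itgb7, a lymphocyte integrin subunit, read 6.90, 6.85 and 7.08 in washout arrays, 7.36, 7.51 and 7.41 in B/B 1 h arrays and 7.28, 7.42 and 7.32 in control arrays, and fell by 0.40 ± 0.071 against control (log2, SE; limma adjusted p = 0.00211). Itga9, which binds tenascin, rose by 0.27 ± 0.060 (log2, SE; limma adjusted p = 0.00744), with 5.47, 5.35 and 5.42 in washout arrays, 5.44, 5.35 and 5.27 in B/B 1 h arrays and 5.08, 5.23 and 5.13 in control arrays. Its B/B 1 h arrays overlapped the washout arrays and stood above control, by 0.21 (log2; limma adjusted p = 0.0989), while washout and B/B 1 h differed by 0.06 (log2; limma adjusted p = 0.535). Itga7, a laminin receptor subunit of muscle, rose by 0.23, a call lost without control replicate 2 or 3 or without any washout array (limma adjusted p 0.0519 to 0.0722 in these). In all, the Itga7 call was lost under 7 of 18 alternatives. Its difference was 0.20 between B/B 1 h and control and 0.04 between washout and B/B 1 h (log2; limma adjusted p = 0.152 and 0.733). Itga8 fell by 0.31, although its washout arrays, 4.64, 4.40 and 4.46, overlapped the control arrays, 4.60, 4.94 and 4.89, and the call was lost without control replicate 2 or 3 or washout replicate 2 or 3 (limma adjusted p 0.0980 to 0.117). Of 18 alternatives, 6 in all lost the Itga8 call. Itga2b, which joins beta 3 in platelets, was at -0.09 (log2; limma adjusted p = 0.199).

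Genes of the complex that ties integrins to actin were measured beside the receptors, 40 of 47 listed. After washout 9 were higher and 17 lower than control (limma adjusted p under 0.05), or 65%, with a median of -0.04, beside 36.2% of all genes above the lowest 30% by mean, where 39 of the 40 lie. The tensins, adaptors that bind beta subunit tails, went opposite ways. Tns4 rose by 1.56 ± 0.10, with 6.30, 6.41 and 6.67 in washout arrays, 5.11, 5.13 and 4.92 in B/B 1 h arrays and 4.97, 4.95 and 4.77 in control arrays (log2, SE). Tns3, named after its value was seen, was also higher, at 0.68 (log2). Tns2 fell by 1.10 ± 0.054 and Tns1 by 0.93 ± 0.060 (log2, SE). Sorbs3, which encodes vinexin, a partner of vinculin, fell by 1.27 ± 0.047 (log2, SE), with 7.72, 7.59 and 7.57 in washout arrays and 8.89, 8.89 and 8.92 in control arrays. For Tns4, Tns2, Tns1 and Sorbs3 the limma adjusted p was at most 4.2e-06. At 1 h of B/B 1 was higher and 0 lower, or 2.5%, where 2.89% of all genes and 3.99% of those above the lowest 30% passed. Of the 40, 12 had an unadjusted limma p under 0.05, and the share of all genes at that level was not counted. The higher gene was Tln1, a talin gene, at 0.21 ± 0.044 (log2, SE; limma adjusted p = 0.0375). Its arrays read 9.83, 9.90 and 9.86 in B/B 1 h and 9.70, 9.67 and 9.59 in control. That call was lost without any 1 of the 9 arrays (limma adjusted p 0.0555 to 0.125), and under 11 of 18 alternatives in all. After washout Tln1 stood below control, at -0.16 (log2; limma adjusted p = 0.0205), a call lost under 4 of 18 alternatives. Against B/B 1 h it fell by 0.37 (log2; limma adjusted p = 1.4e-04). Tln2, another talin gene, named after its value was seen, was also lower in washout than in control, at -0.40 (log2).

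**Figure D3:**
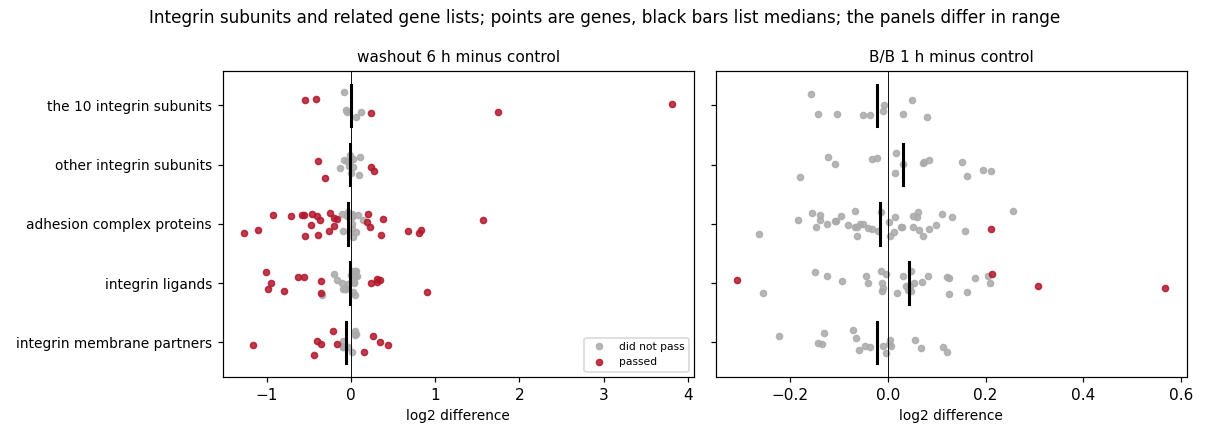
Log2 difference of each measured gene (points) in the 10 integrin subunits, the other integrin subunits, adhesion complex proteins, integrin ligands and integrin membrane partners, for washout 6 h minus control and B/B 1 h minus control. Red points passed the limma test, grey points did not and black bars are list medians; after washout each list holds red points on both sides of 0, while at 1 h there are 5 red points in all.

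Of integrin ligands, 32 of 35 listed were measured, 2 of them in the lowest 30%. After washout 5 were higher and 8 lower than control (limma adjusted p under 0.05), or 40.6%, with a median of -0.02, where 26.2% of all genes and 36.2% of those above the lowest 30% passed. Col1a2, a chain of type I collagen, which alpha 2 beta 1 binds, read 9.69, 9.68 and 9.68 in washout arrays and 10.71, 10.71 and 10.60 in control arrays, and fell by 0.99 ± 0.045 (log2, SE). Thbs1, the matricellular protein thrombospondin 1, fell by 1.01 ± 0.044, and Vcam1, a ligand of leukocyte integrins, by 0.94 ± 0.049 (log2, SE). Edil3, whose product binds alpha v beta 3 and phosphatidylserine-exposing cells, rose by 0.90 ± 0.060 (log2, SE), with 8.80, 8.95 and 8.81 in washout arrays, 8.11, 8.11 and 8.17 in B/B 1 h arrays and 7.88, 7.91 and 8.06 in control arrays. In these 4 genes the limma adjusted p was at most 5.0e-06.

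At 1 h of B/B the ligands had 3 higher and 1 lower of 32 (limma adjusted p under 0.05), or 12.5%, where 2.89% of all genes and 3.99% of those above the lowest 30% passed. For 11 of the 32 the unadjusted limma p was under 0.05, and the share of all genes at that level was not counted. Ccn1, a matricellular integrin ligand, read 11.75, 11.81 and 11.77 in B/B 1 h arrays and 11.26, 11.20 and 11.16 in control arrays, and rose by 0.57 ± 0.043 (log2, SE; limma adjusted p = 1.1e-04). Its relative Ccn2 rose by 0.21 ± 0.046 and Vcam1 by 0.31 ± 0.049, while Npnt, a ligand of alpha 8 beta 1, fell by 0.31 ± 0.066 (log2, SE; limma adjusted p = 0.0426, 0.0110 and 0.0423). The Ccn2 call was lost without any array but B/B 1 h replicate 3 and washout replicate 2, and the Npnt call without any but washout replicates 2 and 3 (limma adjusted p 0.0541 to 0.118 for Ccn2 and 0.0591 to 0.145 for Npnt). Some processing alternatives also lost these calls, so each was lost under 11 of 18 alternatives in all.

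Membrane proteins that sit beside integrins gave 18 measured genes of 18. After washout 4 were higher and 6 lower than control (limma adjusted p under 0.05), or 55.6%, with a median of -0.06, where 26.2% of all genes and 36.2% of those above the lowest 30% passed. At 1 h of B/B 0 were called by limma, where 2.89% of all genes and 3.99% of those above the lowest 30% passed. An unadjusted p under 0.05 was seen in 5, and the share of all genes at that level was not counted. Tspan4, a tetraspanin, fell by 1.17 ± 0.043, Thy1, a surface glycoprotein of fibroblasts, by 0.44 ± 0.050, and Cav1, the caveola coat protein gene, by 0.41 ± 0.053 (log2, SE). Plaur, the urokinase receptor, which binds vitronectin, rose by 0.44 ± 0.060 (log2, SE), with 11.08, 11.03 and 11.17 in washout arrays, 10.31, 10.50 and 10.47 in B/B 1 h arrays and 10.64, 10.69 and 10.64 in control arrays. In these 4 genes the limma adjusted p was at most 4.0e-04. The count of 4 higher was 2 with the probe sets of each gene averaged.

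Genes beside the members on the chromosomes, by the RefSeq gene table, were looked at next. Of 24 neighbouring or overlapping genes that are not members, 12 had a probe set with 1 symbol. In washout against control 2 were higher and 4 lower (limma adjusted p under 0.05), where 26.2% of all genes and 36.2% of those above the lowest 30% passed. At 1 h of B/B limma called 0, where 2.89% of all genes passed. There 5 had an unadjusted p under 0.05, and the share of all genes at that level was not counted. Itga2 lies between Itga1 and Mocs2, a gene of molybdenum cofactor synthesis, and Pelo, a ribosome rescue factor gene, is nested in Itga1. Mocs2 was at -0.02 and Pelo at 0.06 after washout (log2; limma adjusted p = 0.895 and 0.476), beside 3.82 for Itga2. The higher ones were Fam171b, next to Itgav, at 1.32 ± 0.052, and Sap30bp, next to Itgb4, at 0.46 ± 0.049 (log2, SE). The lower ones were Pdk1, a pyruvate dehydrogenase kinase gene next to Itga6, at -0.69 ± 0.071, or -0.37 with its probe sets averaged, Umps, of pyrimidine synthesis, next to Itgb5, at -0.35 ± 0.039, Zfp385a, next to Itga5, at -0.25 ± 0.048, and Myl4, a myosin light chain gene next to Itgb3, at -0.19 ± 0.063 (log2, SE). The Myl4 call (limma adjusted p = 0.0475) was lost without control replicate 2 or 3, B/B 1 h replicate 3 or washout replicate 1 or 2 (0.0658 to 0.163). In all it was lost under 9 of 18 alternatives.

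The 5 genes nearest in pattern to Itga2, by Euclidean distance over the 9 arrays between log2 values minus the control mean, were Slc7a11, Plet1, Ceacam1, Bpifc and Trem3, at distances of 1.41, 2.03, 2.54, 2.57 and 2.75. Slc7a11, the cystine importer gene, read 10.84, 10.84 and 10.75 in washout arrays, 7.40, 7.39 and 7.48 in B/B 1 h arrays and 7.81, 7.74 and 7.77 in control arrays. It was thus lower in B/B 1 h than in control arrays, whereas the Itga2 arrays of those groups overlapped. With its probe sets averaged, the Slc7a11 difference between washout and control was 1.89 and not 3.03 (log2). Plet1, a surface protein gene, read 9.33, 9.15 and 9.26 in washout arrays, 6.93, 6.74 and 6.90 in B/B 1 h arrays and 5.96, 6.00 and 6.04 in control arrays, and so stood above control already at 1 h. Ceacam1, an adhesion molecule gene, Bpifc and Trem3 differed between washout and control by 2.36, 2.35 and 2.25 (log2). This measure follows the size of the difference as well as its course. The 5 genes were chosen on these same arrays, so their rise after washout follows from the choice and is no separate result.

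**Figure D4:**
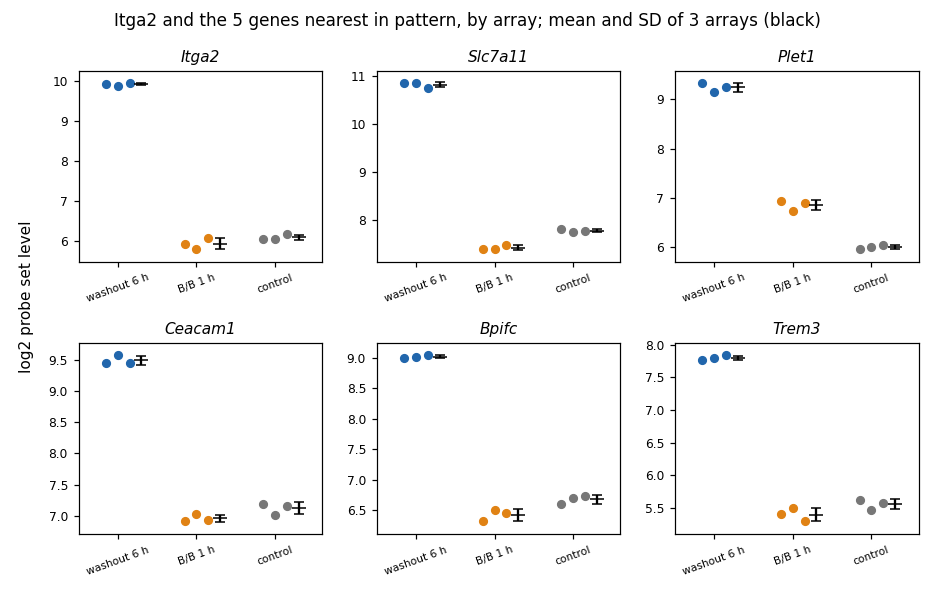
Log2 probe set level of Itga2 and of the 5 genes nearest to it in pattern, Slc7a11, Plet1, Ceacam1, Bpifc and Trem3 (vertical axis, its own range in each panel), in washout 6 h, B/B 1 h and control arrays. Points are arrays and black marks the mean and SD of 3 arrays. Each gene is higher in all 3 washout arrays than in any other, which follows from choosing the 5 genes on these arrays. Of the 6 only Plet1 has its B/B 1 h arrays entirely above its control arrays.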

How the data were processed

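Arrays were hybridised with biotin-labelled cRNA of Trizol-extracted RNA, per the labels' protocols, and the submitters' processing notes name Partek 6.6. The deposited values were taken to be log2 probe set summaries that the authors had normalized between arrays. Both points were inferred from the values, whose array medians lay near each other, and the method is not given in the sources used here. No detection calls were used. Of 41345 probe sets, 23521 carried 1 symbol, 1814 several and 16010 none. Groups came from the treatment labels.

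All 9 arrays entered 1 linear model of 3 group means over 22180 genes (R 4.3.3, limma 3.58.1, statmod 1.5.0), with moderated t-tests and Benjamini-Hochberg adjustment within each comparison. Residual degrees of freedom were 6 and prior ones 3.38. The code was tested on simulated data. Precision is limited by having 3 arrays per group.

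Members and lists were chosen with earlier results of these data known. All members were named, with up to 4 genes of each other list per comparison with control by absolute log2 difference among those passing, all other integrin subunits that passed, the 5 genes nearest to Itga2, predicted genes left out, and neighbouring genes. Ccn1 and Ccn2 were listed under older symbols, Cyr61 and Ctgf. List members without a 1-symbol probe set are not analysed here.

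Alternatives were quantile normalization, median centring, the lowest 30% of genes left out, probe sets averaged, a variance trend, a robust prior, array weights, no moderation, fits of just the 2 groups compared, a threshold of 0.01, and leaving out each array.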

Additional observations from a re-analysis of the deposited data

How the results depend on the processing

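The 11 called differences of integrin subunits kept their direction under every alternative run, and 1 call was lost, that of Itga3 between washout and B/B 1 h with quantile normalization. Of the uncalled differences, Itga6 and Itga5 between washout and control and Itga5 and Itgav between washout and B/B 1 h passed under some alternatives. The number of members lower in washout than in B/B 1 h was 4 with a mean-variance trend, against 2, and the cause was not tested. Small uncalled differences changed sign. Itgb3 at 1 h was 0.0181 with quantile normalization. With 1 array left out, the 1 h differences ran from -0.0252 to 0.0042 for Itga5, -0.0430 to 0.0161 for Itgb1 and -0.104 to 0.0243 for Itgb3, and that of Itga1 between washout and control from -0.205 to 0.0405 (log2). Of 57 called differences of other genes named, checked by alternatives chosen after seeing the data, 49 kept their calls and 0 changed direction. Some counts of other lists moved by over 1.5 times. Other integrin subunits in washout against control became 1 higher and 1 lower, in place of 2 and 2, without moderation, with only the 2 groups compared and without some single arrays. At 1 h, adhesion complex genes higher became 0 without any 1 array, in place of 1, and ligands lower 0, in place of 1, without any array but washout replicates 2 and 3. With some processing alternatives added, each of these counts was 0 under 11 of 18 alternatives at 1 h. There also, adhesion complex genes lower became 3 with a variance trend, in place of 0, ligands higher 6 with that trend and 5 without moderation, in place of 3, and membrane partners lower 3 and 2, in place of 0. No paired analysis was possible because the labels give no replicate numbers, and those used here only name arrays in sample order. The lowest 30% filter left Itga1 out. Without detection calls, low signals could not be told from background.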
